A study of Mus musculus with 8 samples.

Results

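The genes described here are chaperones and degradation factors of the endoplasmic reticulum (ER) that belong to the ATF6 and XBP1 arms of the unfolded protein response, listed as 10 genes: Hspa5, Hsp90b1, Dnajb9, Herpud1, Xbp1, Pdia4, Pdia6, Sdf2l1, Calr and Edem1. They were chosen by name, taking every probe of the array whose annotated gene symbol is on the list. This gave 9 probes of 18138, 1 for each gene except Sdf2l1, which matched no probe in the annotation used here and is named only. All 9 probes were tested, being among the 10246 whose signal exceeded the background on 2 or more of the 8 arrays.

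The cells were C2C12, a mouse myoblast line that turns towards the osteoblast fate when it is given bone morphogenetic protein 2 (BMP-2). They were first held without serum for 4 h. For the last 2 h of that time the medium held 40 µM dynasore or 0.05% DMSO, the vehicle. Dynasore is a small molecule that blocks the GTPase dynamin and with it the pinching off of endocytic vesicles. For the next 6 h the cells stayed in this serum-free medium with dynasore or DMSO, with or without 30 nM BMP-2. There were 4 groups of 2 biological duplicates each, called DMSO, Dynasore, BMP-2+DMSO and BMP-2+Dynasore, so that every group shared the cell line and the serum starvation, and the dynasore stock was itself made up in DMSO. Since one inhibitor at one dose was used, an action of dynasore through dynamin and one apart from dynamin cannot be told apart. The comparisons ask how the genes responded to dynasore alone, to BMP-2 alone and to both.

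Proteins that enter the secretory pathway are folded in the ER by chaperones such as BiP, by lectins such as calreticulin and by disulfide isomerases, and those that fail to fold are drawn back into the cytosol and degraded. When unfolded proteins accumulate, the membrane sensors IRE1, PERK and ATF6 start the unfolded protein response. IRE1 splices the Xbp1 mRNA, ATF6 is cut in the Golgi apparatus to release a transcription factor, and both XBP1 and ATF6 raise the transcription of folding and degradation genes, while PERK slows translation and favours the synthesis of ATF4.

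ATF6 acts, together with the factor NF-Y, through a promoter motif called the ER stress response element. It reads CCAAT, then 9 bases of any kind, then CCACG. This motif and the related ERSE-II, which reads ATTGG, 1 base of any kind and CCACG, were searched on both strands in the RefSeq promoters of the assembly GRCm38.p6, which run from 250 bases before to 50 bases after each transcription start. All 10 genes matched a promoter by symbol. The first motif was present in 4 of these 10 promoters, those of Hspa5, Hsp90b1, Calr and Pdia6, and in 39 of 32851 promoters in all, or 0.119%. ERSE-II was present in 1 of the 10, that of Herpud1, and in 12 of all promoters, or 0.0365%. The letters TGACGTGG, the core of the unfolded protein response element, were in none of the 10 and in 222 of all promoters, or 0.676%. The other 5 promoters held none of the 3 motifs. The genes were chosen by name, without a promoter search, but as members of the ATF6 and XBP1 arms. Since ATF6 acts through the first motif, these counts are not independent of the choice of genes. The stretches around the matches in these 5 promoters are written along the gene from 5′ to 3′. The matched letters are in capitals, and no match overlaps another.
Hspa5, chr2:34771985-34772083, plus strand: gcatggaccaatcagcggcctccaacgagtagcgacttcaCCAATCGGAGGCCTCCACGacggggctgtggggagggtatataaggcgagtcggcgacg
Hsp90b1, chr10:86705493-86705694, minus strand: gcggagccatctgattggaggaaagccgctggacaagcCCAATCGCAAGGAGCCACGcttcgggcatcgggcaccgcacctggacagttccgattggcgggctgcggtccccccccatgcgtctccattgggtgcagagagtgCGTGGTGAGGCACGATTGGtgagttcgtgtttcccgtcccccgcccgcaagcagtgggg
Calr, chr8:84847035-84847133, minus strand: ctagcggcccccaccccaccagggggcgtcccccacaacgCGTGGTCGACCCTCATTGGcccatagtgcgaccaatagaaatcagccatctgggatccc
Pdia6, chr12:17266451-17266549, plus strand: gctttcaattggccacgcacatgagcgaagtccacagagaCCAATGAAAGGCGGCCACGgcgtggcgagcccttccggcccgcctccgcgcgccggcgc
Herpud1, chr8:94386337-94386427, plus strand: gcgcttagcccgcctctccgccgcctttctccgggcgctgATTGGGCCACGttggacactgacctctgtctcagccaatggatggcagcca

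In Hspa5 the match began 65 bases before the transcription start and in Pdia6 98 bases before it, both on the strand of the gene. The promoter of Hsp90b1 held 2 matches, one on its own strand that began 212 bases before the start and one on the opposite strand that reached from 107 to 89 bases before it. In Calr the match was on the opposite strand, 162 to 144 bases before the start, and in Herpud1 the shorter ERSE-II began 52 bases before it. A match of letters is a description of the window and does not show that a factor bound there.

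Values are given as log2 intensities after background correction and quantile normalization of the authors' intensities, and they order samples for one gene only, since probes of different genes differ in brightness. A probe counted as above background on an array when it exceeded the mode of the dim probes by the one-sided 95% limit of their spread. The duplicates correlated at 0.9941 in DMSO, 0.9946 in Dynasore and 0.9783 in BMP-2+Dynasore but at 0.7754 in BMP-2+DMSO (Pearson's r over the tested probes). BMP-2+DMSO replicate 2 stood apart, with a mode of the dim probes of 241.8 in the authors' units, against -1.209 to 14.21 on 6 of the other arrays and 45.24 on BMP-2+Dynasore replicate 2, and with 7430 probes above background against 8874 to 9467. On this array 1083 of the tested probes, or 10.6%, were more than 2 log2 units below replicate 1, and 55 were so on BMP-2+Dynasore replicate 2. Of these 55, 46 were among the 1083, which is 83.6% of the smaller set and 4.25% of the larger, while no probe differed that much in DMSO or Dynasore. The study's methods kept 1 of the BMP-2+DMSO arrays in the significance test, and replicate 2 was taken as the kept one because the study's own ratios for that group follow it. The first values below therefore come from 7 arrays without BMP-2+DMSO replicate 1, and the fits with all 8 arrays and with replicate 1 instead are given beside them. Of the myoblast markers, Des was above background on all 8 arrays, Myod1 on 7 and Myf5 on none, and of 6 probed markers of other cell types 5 were above it on none while Col2a1, a cartilage collagen, was on 6.

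Dynasore raised 8 of the 9 probes, by between 0.87 and 3.28 on the log2 scale. Across all tested probes 17.9% were called higher and 19.5% lower in this comparison (limma, adjusted p under 0.05), and none of the 9 was lower. The median change of the 9 was 1.60, against -0.0031 for all tested probes. For every one of the 9 both Dynasore arrays lay above both DMSO arrays, but the share of all tested probes that did so was not counted.

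The chaperones showed this in the single arrays. Hspa5 encodes BiP, the HSP70 chaperone of the ER lumen that also holds the sensors inactive. Its log2 value was 6.19 and 5.49 in DMSO, 5.78 and 6.45 in BMP-2+DMSO, 7.74 and 7.96 in Dynasore, and 7.14 and 7.41 in BMP-2+Dynasore. The 4 arrays with dynasore were thus above the 4 without it, and of those 4 only DMSO replicate 1 was above background, so the low side was barely measured. Dynasore raised Hspa5 by 2.01 ± 0.235 (SE, n = 2 per group, adjusted p from limma 8.18e-05), a 4.04-fold difference.

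Hsp90b1 encodes GRP94, the HSP90 chaperone of the ER. Its values were 12.62 and 12.53 in DMSO, 12.72 and 13.39 in BMP-2+DMSO, 14.07 and 14.08 in Dynasore, and 13.70 and 14.14 in BMP-2+Dynasore. The arrays with dynasore lay above those without it, and BMP-2+DMSO replicate 2 came closest to them. The change in Dynasore was 1.51 ± 0.13 (SE, adjusted p from limma 1.45e-05), or 2.84-fold.

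Calr encodes calreticulin, a lectin chaperone that binds calcium and folds glycoproteins. Its values were 10.69 and 11.39 in DMSO, 11.74 and 5.36 in BMP-2+DMSO, 12.78 and 12.88 in Dynasore, and 12.32 and 9.26 in BMP-2+Dynasore. The low value of BMP-2+DMSO replicate 2 was not above background, and BMP-2+Dynasore replicate 2 was below both DMSO arrays, so that the duplicates of both BMP-2 groups disagreed by more than 2 log2 units. Calr was the probe of the 9 that was not called in Dynasore, at 1.79 ± 1.24 (SE, adjusted p from limma 0.375), with a 95% interval that spanned 0 and reached 5.58. The fit pools the spread over the groups, and without BMP-2+Dynasore replicate 2 the same difference of 1.79 had an adjusted p of 8.07e-08 in limma. Over all 15 alternatives this p ran from 8.07e-08 to 0.788, and it passed the threshold in the 2 that left out a BMP-2+Dynasore array.

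**Figure D1:**
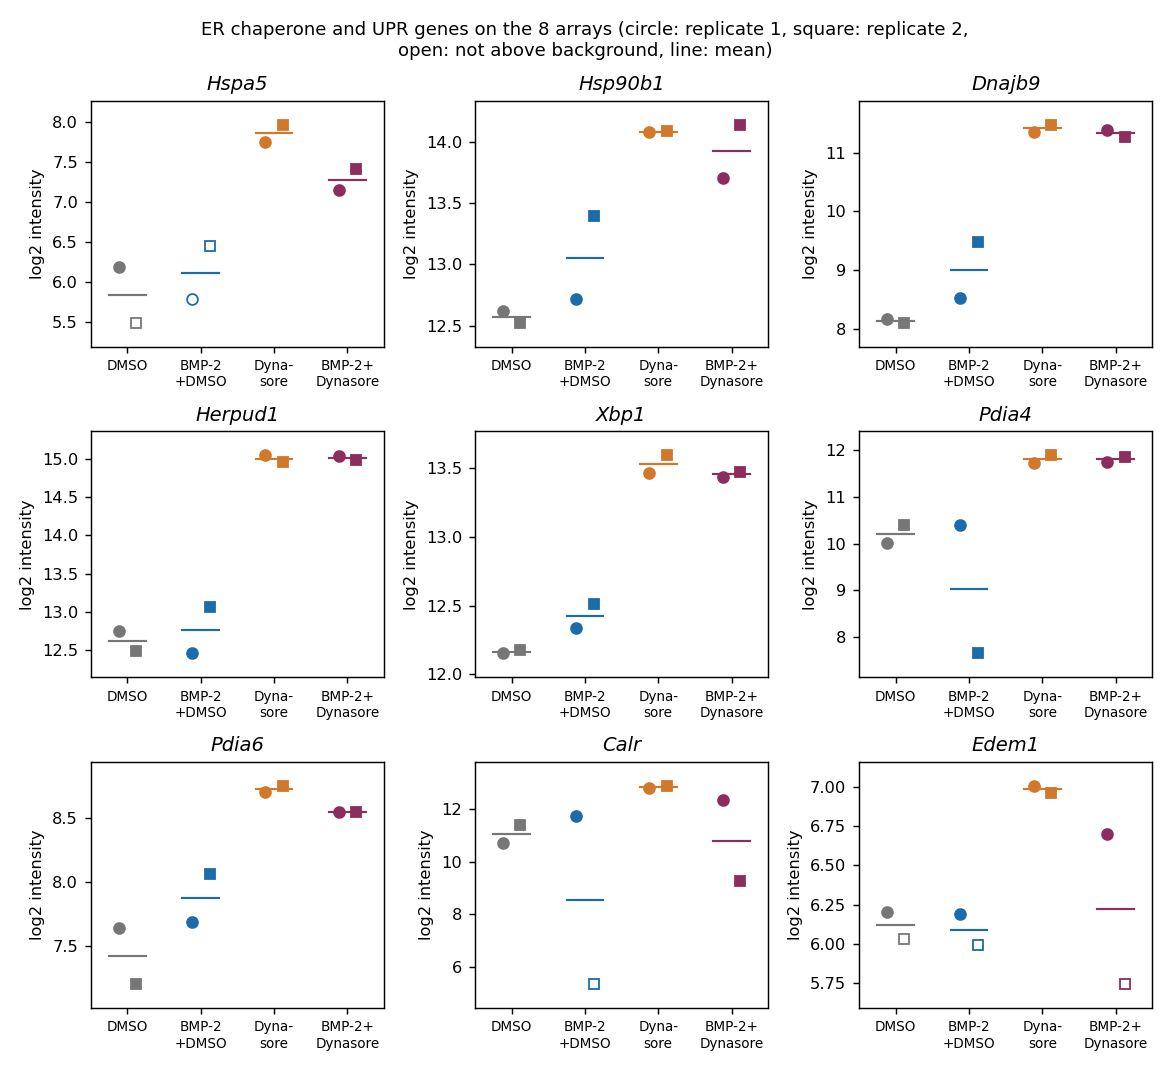
Log2 intensity (vertical axis) of the 9 probes in the 4 groups (horizontal axis), 1 panel per gene, with replicate 1 as a circle, replicate 2 as a square, open symbols for values not above background and a line at the mean of the duplicates. In every panel both Dynasore arrays lie above both DMSO arrays, a pattern that was not counted over all tested probes. Pdia4 and Calr fall on BMP-2+DMSO replicate 2, to 7.65 and 5.36.

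Pdia4 (ERp72) and Pdia6 (P5) encode thioredoxin-like enzymes that form and rearrange disulfide bonds in the ER. For Pdia4 the values were 10.02 and 10.40 in DMSO, 10.41 and 7.65 in BMP-2+DMSO, 11.72 and 11.89 in Dynasore, and 11.75 and 11.85 in BMP-2+Dynasore. All 4 arrays with dynasore lay close together and above the rest, whereas BMP-2+DMSO replicate 2 was far below every other array. Dynasore raised Pdia4 by 1.60 ± 0.14 (SE, adjusted p from limma 1.04e-05). For Pdia6 the values were 7.64 and 7.21 in DMSO, 7.69 and 8.06 in BMP-2+DMSO, 8.70 and 8.75 in Dynasore, and 8.55 in both BMP-2+Dynasore arrays. Again no array with dynasore overlapped one without it, and the change in Dynasore was 1.30 ± 0.17 (SE, adjusted p from limma 0.000164).

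Dnajb9 (ERdj4), a J-domain cochaperone of BiP that takes part in ER-associated degradation, had the largest change of the 9 relative to DMSO in Dynasore and in BMP-2+Dynasore (7 arrays). Its values were 8.18 and 8.10 in DMSO, 8.53 and 9.48 in BMP-2+DMSO, 11.36 and 11.48 in Dynasore, and 11.38 and 11.27 in BMP-2+Dynasore. The 4 arrays with dynasore lay close together, far above the 4 without it, among which BMP-2+DMSO replicate 2 was the highest. The change in Dynasore was 3.28 ± 0.12 (SE, adjusted p from limma 1.42e-08), or 9.70-fold, which ranked 30 among the 10246 tested probes ordered from the highest change down.

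Of the degradation factors, Herpud1 encodes HERP, a membrane protein of the complex that ubiquitinates misfolded proteins. Its values were 12.75 and 12.49 in DMSO, 12.46 and 13.06 in BMP-2+DMSO, 15.04 and 14.95 in Dynasore, and 15.03 and 14.98 in BMP-2+Dynasore. The groups with dynasore could not be told from each other and stood clear of the rest. The change in Dynasore was 2.38 ± 0.10 (SE, adjusted p from limma 5.8e-08), or 5.20-fold, at rank 63.

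Edem1 encodes a lectin that passes misfolded glycoproteins on to degradation. Its values were 6.20 and 6.03 in DMSO, 6.19 and 5.99 in BMP-2+DMSO, 7.01 and 6.96 in Dynasore, and 6.70 and 5.74 in BMP-2+Dynasore. It was above background on 5 arrays only, and the low BMP-2+Dynasore value came from replicate 2, where it was not. Its change in Dynasore, 0.87 ± 0.28 (SE, adjusted p from limma 0.0355), was the smallest of the 9, and over 15 alternatives the p ran from 0.000289 to 0.259 and passed the threshold in 8.

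Xbp1 encodes the transcription factor that IRE1 activates, and the probe does not separate its spliced from its unspliced mRNA here. The values were 12.15 and 12.17 in DMSO, 12.34 and 12.51 in BMP-2+DMSO, 13.47 and 13.60 in Dynasore, and 13.44 and 13.48 in BMP-2+Dynasore. The duplicates of each group lay close together, and the arrays with dynasore were above all others. The change in Dynasore was 1.37 ± 0.09 (SE, adjusted p from limma 1.82e-06).

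With all 8 arrays the changes in Dynasore are the same by construction and only the pooled spread is wider, because it then holds the discordant BMP-2+DMSO duplicates. In that fit 5 of the 9 were called higher, Hspa5, Hsp90b1, Dnajb9, Herpud1 and Xbp1, with adjusted p from 0.00508 to 0.0423 in limma, and none lower, while 3.15% of all tested probes were called in one direction or the other. Pdia4 and Pdia6 had adjusted p of 0.384 and 0.0763 there. When BMP-2+DMSO was left out altogether, 8 of 9 were called higher, the same count as with 7 arrays. Of the 10246 tested probes 1843 were then called higher and 1989 lower.

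The response was present with BMP-2 as well. In BMP-2+Dynasore, 7 of the 9 probes were higher than in DMSO, where 19.5% of all tested probes were, and none was lower. The changes were 3.19 for Dnajb9, 2.39 for Herpud1, 1.59 for Pdia4, 1.43 for Hspa5, 1.35 for Hsp90b1, 1.29 for Xbp1 and 1.12 for Pdia6, with adjusted p from 1.76e-08 to 0.000726 in limma. In this comparison and the one above the DMSO arrays are shared. When all 8 arrays were fitted 4 were called higher, Hsp90b1, Dnajb9, Herpud1 and Xbp1, and 3.55% of all tested probes were called either way. Calr, at -0.25, and Edem1, at 0.10, were not called with 7 arrays. Both turned on BMP-2+Dynasore replicate 2, since without it Calr was 1.29 higher than in DMSO (adjusted p from limma 4.39e-05) and Edem1 0.58 higher (adjusted p 0.0257). Without replicate 1 instead, Calr was at -1.78 (adjusted p 1.22e-06), and over its alternatives the p ran from 1.22e-06 to 0.981. For Edem1 this range was 0.0257 to 0.981.

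**Figure D2:**
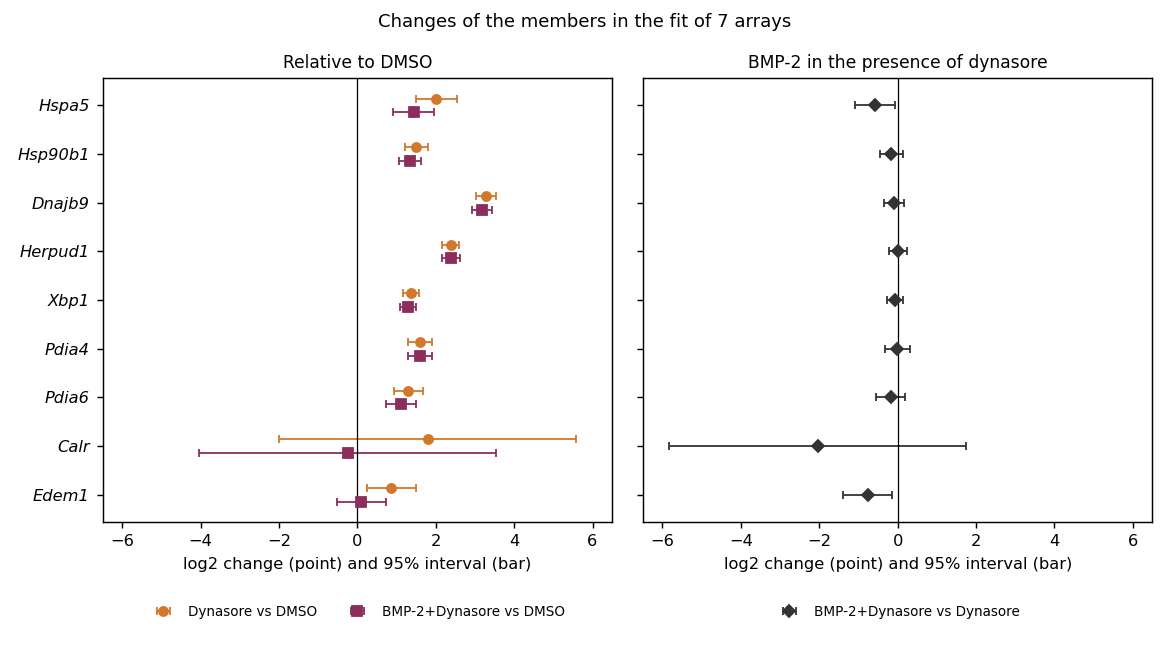
Log2 change of each of the 9 genes (vertical axis) in the fit of 7 arrays, with 95% intervals as bars, for Dynasore and BMP-2+Dynasore relative to DMSO (left) and for BMP-2+Dynasore relative to Dynasore (right). Relative to DMSO, 7 genes have intervals above 0 in both groups, and the intervals of Calr span several log2 units in both panels.

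Adding BMP-2 to cells that had dynasore called none of the 9 genes. Of all tested probes 0.654% were called higher and 0.215% lower in BMP-2+Dynasore relative to Dynasore. For Herpud1 the difference was 0.007 with a 95% interval of -0.22 to 0.23, for Pdia4 -0.0059 (-0.32 to 0.30), for Xbp1 -0.076 (-0.28 to 0.13), for Dnajb9 -0.09 (-0.35 to 0.17), for Hsp90b1 -0.16 (-0.45 to 0.13) and for Pdia6 -0.18 (-0.55 to 0.20). In the fit of 7 arrays these intervals exclude a change as large as that between Dynasore and DMSO in each of the 6 genes. A smaller change is not excluded. With all 8 arrays the Pdia4 interval was -1.89 to 1.88, which includes its change of 1.60 in Dynasore. For the rest of the 6 genes the exclusion held with all 8 arrays too. With 7 arrays 2 genes were lower at an unadjusted p under 0.05, Hspa5 at -0.58 (limma, adjusted p 0.416) and Edem1 at -0.76 (adjusted p 0.38). In both the duplicates of the groups did not overlap, and the same held for Pdia6 and Calr. Neither the unadjusted p nor the overlap was counted over all tested probes. Among all 8 arrays none of the 9 was past either threshold (limma), with 0.0195% of all tested probes called, and without BMP-2+Dynasore replicate 1, when only replicate 2 stands for that group, Calr at -3.57 and Edem1 at -1.24 were called lower, in a fit that called 16.3% of all tested probes.

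For BMP-2 without dynasore the BMP-2+DMSO arrays disagreed for several of the genes. With 7 arrays, where replicate 2 alone stands for the group, 5 of the 9 were called higher and 2 lower than in DMSO, but 41.4% of all tested probes were called higher and 28.1% lower. The genes called higher were Dnajb9, by 1.34, Hsp90b1, by 0.82, Pdia6, by 0.63, Herpud1, by 0.44, and Xbp1, by 0.35, with the median of all tested probes itself at 0.22. Pdia4 was at -2.56 and Calr was at least 21.1-fold lower (adjusted p from limma 0.043), a bound set by the background of the array. With replicate 1 in place of replicate 2, none was called (limma), the 9 changes lay between -0.16 and 0.70, and 1, Dnajb9 at 0.39, had an unadjusted p under 0.05. The fit of all 8 arrays called none either, again with Dnajb9 as the 1 gene at an unadjusted p under 0.05. Of all tested probes 4.62% were called in one direction or the other with replicate 1 and 0.205% with all 8. Only Dnajb9, Hsp90b1, Xbp1 and Pdia6 were above both DMSO arrays on both BMP-2+DMSO arrays, a count not made over all tested probes. The difference between the BMP-2 effects in cells with and without dynasore, the interaction, rests on the same arrays. It was called in 7 of the 9 with replicate 2, 1 higher and 6 lower, beside 23.2% higher and 32.9% lower among all tested probes, but in none of the 9 with replicate 1 (limma, 1.06% of all tested probes) or with all 8 arrays (0% of all tested probes).

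**Figure D3:**
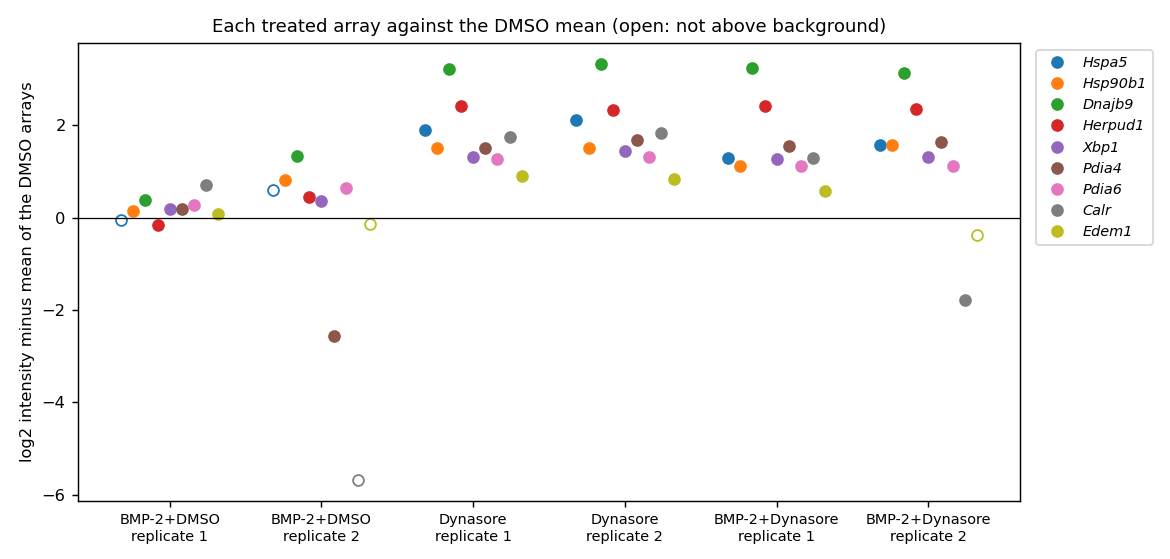
Log2 intensity of the 9 genes on each treated array (horizontal axis) minus the mean of the DMSO arrays (vertical axis), with open symbols for values not above background. On BMP-2+DMSO replicate 1 all 9 lie between -0.16 and 0.70, on replicate 2 they lie between -5.68 and 1.34, and on both Dynasore arrays all are above 0.

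Dynasore also separated the groups that had BMP-2, whichever BMP-2+DMSO array was used, but with replicate 2 not under every scaling. With replicate 2 and arrays scaled to equal medians, Hsp90b1 was at -0.55, Xbp1 at -0.20 and Edem1 at -0.73 in BMP-2+Dynasore against BMP-2+DMSO. The rest stayed higher in BMP-2+Dynasore. With 7 arrays 7 of the 9 were higher in BMP-2+Dynasore than in BMP-2+DMSO, where 28.8% of all tested probes were, and with replicate 1 in place of replicate 2 again 7 were, against 15.5%. The 7 were not the same genes, since Calr was among them only with replicate 2 and Pdia6 only with replicate 1. The sizes depended on the array. Dnajb9 was 1.84 higher with replicate 2 and 2.80 with replicate 1, Herpud1 1.95 and 2.55, and Xbp1 0.94 and 1.12. Pdia4 was 4.15 higher with replicate 2 and 1.40 with replicate 1, and Pdia6 0.49 and 0.85. Hspa5, not above background on either BMP-2+DMSO array, was at least 1.56-fold higher with replicate 2 (adjusted p from limma 0.026) and at least 2.32-fold with replicate 1 (adjusted p 0.00326). Calr was at least 17.8-fold higher with replicate 2 (adjusted p 0.0493) and at -0.94 with replicate 1, where it was not called. In the fit of all 8 arrays 3 were called higher, Herpud1, by 2.25, Dnajb9, by 2.32, and Xbp1, by 1.03, and 3.59% of all tested probes were called either way.

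The members did not stand alone among the genes of the ER, and the lists that follow were drawn up by function with earlier results of these data known. Among other chaperones and folding enzymes of the ER, 9 of the 13 tested were higher in Dynasore with 7 arrays and 1 lower, with a median of 0.83, beside 17.9% higher and 19.5% lower among all tested probes. They included Ero1b, the oxidase that recharges disulfide isomerases, at 2.29, Creld2 at 1.91, the BiP cochaperone Dnajc3 (p58IPK) at 1.71 and the BiP nucleotide exchange factor Hyou1 at 1.46. The reductase Dnajc10 was at -0.81. Among other genes of ER-associated degradation, 6 of 12 were higher and none lower, with a median of 0.72, and these included the ubiquitin ligase Syvn1 (HRD1) at 1.60, Selenos at 1.32, Edem2 at 0.83 and Derl2 at 0.77. Of the genes for entry into the ER and exit from it, 7 of 14 were higher and none lower, with a median of 0.62. The signal recognition particle receptor subunit Srprb was at 1.60, the COPII coat protein Sec23b at 1.31, the translocon partner Sec63 at 1.28 and Serp1 at 1.14. When fitted with all 8 arrays, 0 of the 13 folding genes were called in limma, 2 of the 12 degradation genes and 1 of the 14 entry and exit genes. Of all tested probes 3.15% were called. At an unadjusted p under 0.05, 5 of the 13 folding genes were higher and 1 lower, a count not made over all tested probes.

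The list of sensors had a lower median, but Atf6 itself and Mbtps2, also on this list, had no probe in the annotation used here. Of 7 tested, 3 were higher and 1 lower, with a median of 0.33: Eif2ak3, which encodes PERK, was at 1.53, the ATF6 relatives Creb3l2 and Creb3 at 1.25 and 0.62, and Atf6b at -0.42. The sensor gene Ern1 (IRE1) was at 0.33 (limma, adjusted p 0.229), and Creb3l1 at -0.81 and Mbtps1 at -0.09 were not called either. With all 8 arrays none of the 7 was called, beside 3.15% of all tested probes. At an unadjusted p under 0.05, 2 of the 7 were higher there, a count not made over all tested probes. The genes listed for the PERK, ATF4 and CHOP branch had the highest median of the lists described, 3.19. Of the 10 tested, 9 were higher and none lower, also with all 8 arrays. Atf4 itself had no probe in the annotation used here, and whether PERK acted on these genes was not tested. Trib3, a pseudokinase, was at 5.37, Ddit3, which encodes CHOP, at 5.10, the glutathione-degrading enzyme Chac1 at 4.21 and Ppp1r15a (GADD34), which restores translation, at 4.06. Cytosolic heat shock proteins served for comparison. Of 6 tested, 3 were higher, Hsph1 at 2.18, Dnajb1 at 1.62 and Hspa1a at 0.77, and none lower, with a median of 0.61 and 1 called with all 8 arrays. In BMP-2+Dynasore against DMSO with 7 arrays, 9 of 13 folding genes, 5 of 12 degradation genes and 8 of 14 entry and exit genes were higher. So were 4 of 7 sensors, 9 of 10 genes of the PERK, ATF4 and CHOP branch and 3 of 6 cytosolic proteins. The folding list and the cytosolic list each had 1 lower. Of all tested probes 19.5% were higher, and 1940 of 10246 were lower. With all 8 arrays the counts of higher genes in these lists were, in the same order, 0, 2, 1, 0, 9 and 1. None was lower there, and 3.55% of all tested probes were called either way.

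**Figure D4:**
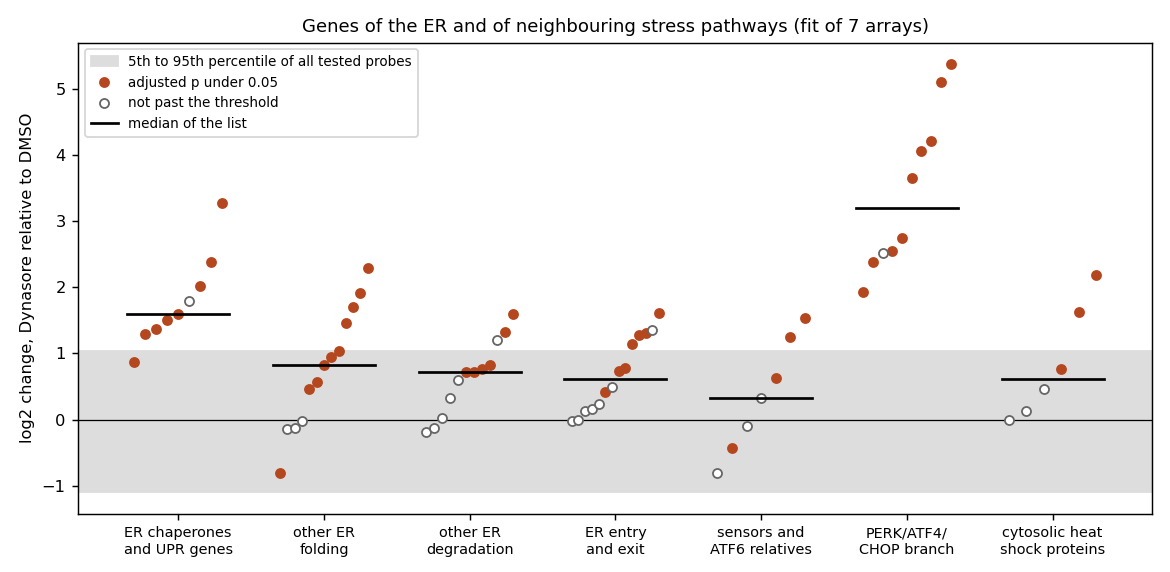
Log2 change in Dynasore relative to DMSO (vertical axis, fit of 7 arrays) of the 9 genes and of the other genes of the ER and of neighbouring stress pathways (horizontal axis), 1 point per gene, filled where the adjusted p was under 0.05, with the median of each list as a line and the 5th to 95th percentile of all tested probes shaded. The line of the 9 genes is at 1.60, that of the PERK, ATF4 and CHOP branch at 3.19 and those of the other lists between 0.33 and 0.83.

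The promoters gave another way to look at the response. Of the 37 genes with the ER stress response element in the window, 12 were tested. In Dynasore 8 of the 12 were higher and none lower, with a median of 1.55, whereas of the 9392 genes tested, taken by 1 probe each, 18.1% were higher and 19.8% lower. When all 8 arrays were used, 3 of the 12 were called, Hspa5, Hsp90b1 and Syvn1, against 3.15% of all tested probes. Without the 4 members that hold the motif, 5 of 8 were higher and none lower, with a median of 1.28, and 1 of the 8, Syvn1, was called when all 8 arrays were used. The 5 were Ero1b, Creld2, Dnajc3, Syvn1 and Alg12, a mannosyltransferase of the ER, which was at 0.95. Since Ero1b, Creld2, Dnajc3 and Syvn1 also stand in the lists above, this count is not separate evidence from those lists. The remaining 3, Pan2, Spats2l and Calr4, were at -0.30, -0.31 and -0.43 and were not called. ERSE-II was in the promoters of 12 genes, of which 7 were tested. Of these 2 were higher in Dynasore and none lower, with a median of 0.32, and without Herpud1 1 of 6 was higher, with a median of 0.32. The members without either motif in this window were Dnajb9, Xbp1, Pdia4, Sdf2l1 and Edem1. In Dynasore with 7 arrays Dnajb9, Pdia4, Xbp1 and Edem1 were at 3.28, 1.60, 1.37 and 0.87, and Sdf2l1 had no probe. With all 8 arrays Pdia4 and Edem1 were not called (limma, adjusted p 0.384 and 0.259).

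Across the 7 arrays each gene's profile was set against the mean of the other 8, as a description, with the groups and arrays shared by all points. The correlation was highest for Herpud1, at 0.914, and Xbp1, at 0.912, and lowest for Calr, at 0.510, and Edem1, at 0.695. Among 5824 other genes above background on all 8 arrays, those whose profile was most like the mean of the 9 were Ythdc1 (r = 0.994), Alg9 (0.993), Saraf (0.992), Tbl2 (0.991) and Keap1 (0.991). In total 268 of the 5824 had an r above 0.9 over these 7 arrays. In Dynasore these 5 were 1.07, 0.69, 0.92, 2.51 and 1.19 higher than in DMSO.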

How the data were processed

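RNA of C2C12 cells in 4 groups of 2 biological duplicates was measured on Illumina MouseRef-8 v2.0 arrays. The authors deposited intensities per probe, normalized with the rank invariant method of BeadStudio 3.0. Some are below 0, so a background had been subtracted. A table of signals before normalization has 16 value columns with numbered names that no label ties to a sample, and it was not used. The genome build of the array annotation is not given in the sources used here. Background was modelled by normexp (limma 3.58.1, R 4.3.3; offset 16), followed by quantile normalization of the 8 arrays and the log2. The test took in the 10246 probes that exceeded background on 2 or more arrays, of which 6305 did so on all 8. Fold changes of dim genes are understated by the offset. The groups were fitted together with lmFit and eBayes (trend and robust), with 3 residual degrees of freedom for 7 arrays, and the Benjamini-Hochberg adjustment ran over every tested probe within a comparison, with a threshold of 0.05. Where a probe was not above background on any array of a group, the fold is a bound against the array's limit. For counts at an unadjusted p and of groups that did not overlap, no share over all tested probes was taken. The number of arrays limits the precision.

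The probes of all members were named, and of each other list up to 4 genes past the threshold with the largest change in Dynasore, and genes outside this rule were chosen after their values were seen. Members and lists were chosen with earlier results of these data known. Promoter sequences are from RefSeq, GRCm38.p6. The deviations of equally numbered arrays correlated at 0.5 between BMP-2+DMSO and BMP-2+Dynasore. Between the other pairs of groups the correlation was -0.276 to 0.00367. The main fit did not treat replicate numbers as pairs, so a deviation shared by the BMP-2 groups is not removed in it. The alternatives were other arrays in the fit, an offset of 50, the authors' values without the quantile step, arrays scaled to equal medians, other filters, plain eBayes, a replicate block and leaving out each array.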

Additional observations from a re-analysis of the deposited data

Results flagged for a closer look

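The interaction, the BMP-2 effect in the presence of dynasore less the BMP-2 effect in DMSO alone, differed from 0 in 7 of the 9 genes with 7 arrays (limma), where 23.2% of all tested probes were called higher and 32.9% lower. Hspa5 was at -1.19 (adjusted p 0.0199), Hsp90b1 at -0.98 (0.00306), Dnajb9 at -1.44 (0.000129), Herpud1 at -0.43 (0.0402), Xbp1 at -0.43 (0.0286), Pdia6 at -0.81 (0.0248) and Pdia4 at 2.55 (7.74e-06). BMP-2+DMSO replicate 2 alone stands for its group in these values. With all 8 arrays they were -0.85, -0.64, -0.96, -0.13, -0.34, -0.63 and 1.17, and with replicate 1 instead of replicate 2 they were -0.52, -0.30, -0.48, 0.17, -0.25, -0.45 and -0.20, and none was called in either fit (limma). At an unadjusted p under 0.05 there was none with all 8 arrays and 1, Dnajb9, with replicate 1.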

How the results depend on the processing

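In Dynasore against DMSO no gene changed its direction in any alternative, and Dnajb9, Herpud1, Xbp1, Hsp90b1 and Hspa5 passed the threshold in all of those in which they were tested. With all 8 arrays the calls were 5 in Dynasore and 4 in BMP-2+Dynasore against DMSO, 3 in BMP-2+Dynasore against BMP-2+DMSO, and 0 in BMP-2+DMSO against DMSO and in the interaction. The results with replicate 1 of BMP-2+DMSO used instead of replicate 2 are given above. With the authors' values without the quantile step, the median interaction of all tested probes moved from -0.19 to 0.49. Genes whose direction turned there are listed below. Leaving out 1 array at a time gave 7 to 9 calls in Dynasore (24.4 to 49.2% of all tested probes) and 7 to 9 in BMP-2+Dynasore (25.6 to 47.1%) against DMSO, 4 to 8 in BMP-2+DMSO against DMSO (59.7 to 75.9%, 4 without DMSO replicate 2), 6 to 9 in BMP-2+Dynasore against BMP-2+DMSO (64 to 73%), 0 to 2 in BMP-2+Dynasore against Dynasore (0.39 to 16.3%) and 3 to 9 in the interaction (44.5 to 65.9%, 3 without DMSO replicate 2 or Dynasore replicate 2). Where this left a group with 1 array, that array was taken to vary like the others. The replicate block left 8, 7, 6, 5, 0 and 6 calls in Dynasore, BMP-2+Dynasore and BMP-2+DMSO against DMSO, BMP-2+Dynasore against BMP-2+DMSO and against Dynasore, and the interaction, where it called 35.2, 36.2, 65.9, 63.9, 0.742 and 51.7% of all tested probes.

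Directions turned as follows, and apart from the array exchanged or left out the cause was not tested. With replicate 1, BMP-2+DMSO against DMSO gave Hspa5 -0.058, Herpud1 -0.16, Pdia4 0.20, Calr 0.70 and Edem1 0.073, BMP-2+Dynasore against BMP-2+DMSO gave Calr -0.94, and the interaction gave Herpud1 0.17, Pdia4 -0.20 and Calr -2.73. With the authors' values, Edem1 was at -0.025 in BMP-2+Dynasore against DMSO, Hspa5 at -0.074 and Pdia6 at -0.85 in BMP-2+DMSO against DMSO, Herpud1 at -0.11 and Pdia4 at 0.035 in BMP-2+Dynasore against Dynasore, and Pdia6 at 0.63 in the interaction. With equal medians, Edem1 was at 0.94 in BMP-2+DMSO against DMSO, Hsp90b1 at -0.55, Xbp1 at -0.20 and Edem1 at -0.73 in BMP-2+Dynasore against BMP-2+DMSO, and Dnajb9 at 0.055, Herpud1 at -0.019, Xbp1 at 0.057 and Pdia4 at 0.13 in BMP-2+Dynasore against Dynasore. With the replicate block Edem1 was at 0.068 in BMP-2+DMSO against DMSO. Leaving out 1 array at a time, BMP-2+Dynasore against DMSO ran from -1.78 to 1.29 for Calr and from -0.37 to 0.58 for Edem1, which also ran from -0.25 to 0.71 against BMP-2+DMSO. In BMP-2+Dynasore against Dynasore, Hsp90b1 ran from -0.38 to 0.059, Herpud1 from -0.040 to 0.054 and Pdia4 from -0.092 to 0.080.

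The scaling moved the median of all tested probes in BMP-2+DMSO against DMSO from 0.22 to -0.50 with the authors' values and 0.99 with equal medians, and the calls from 4241 higher and 2877 lower to 1111 and 4612, and to 6506 and 1725. In Dynasore against DMSO the median moved to -0.10 and 0.03, and the calls from 1838 and 1999 to 1353 and 2427, and to 1783 and 1788. Hspa5 and Edem1 were above background on 5 arrays each, so their low side is limited by the background.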
